A study of Mus musculus with 18 samples.

Results

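The comparison asks whether the S252W allele of Fgfr2 changes RNA levels differently in the mandibular condylar cartilage and in Meckel's cartilage (MC). For each gene it is the log2 difference between Fgfr2+/S252W and Fgfr2+/+ libraries in condylar cartilage minus the same difference in MC, and it uses 12 of the 18 libraries of the series, 3 for each genotype in each cartilage. The other 6 libraries are mandibular bone. Each library came from 1 female embryo, C57BL/6 by its label, at embryonic day 16.5, the control embryos being unaffected littermates that are Fgfr2+/+ and the others heterozygous for Fgfr2S252W. Tissue was cut from coronal cryosections by laser capture microdissection, and its RNA was amplified before sequencing. The sample labels give a replicate number but do not name the embryo. That the condylar and MC libraries of 1 genotype and replicate number came from the same embryo was inferred from those numbers.

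FGFR2 is a receptor tyrosine kinase that signals through ERK and other kinases when FGF ligand and heparan sulfate bind, and S252W, the most common change in Apert syndrome, alters the extracellular linker that contacts the ligand and raises ligand affinity. MC is a primary cartilage, a rod of neural crest chondrocytes along which the mandible ossifies and most of which later disappears. Condylar cartilage is a secondary cartilage that forms from periosteal cells beside the bone, grows from a fibrous and proliferative surface layer, and passes quickly to hypertrophic chondrocytes that are replaced by bone. The allele is present in the germ line, so all cells of an embryo carry it.

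The libraries held between 8218548 and 12772454 fragments counted on genes, with similar ranges in condylar cartilage (8768399 to 12772454) and MC (8218548 to 10559607). Levels of the same gene are given as normalized CPM, the count of a gene relative to the scaled total of its library, always for replicates 1, 2 and 3 and, where a pair of groups is set side by side, with Fgfr2+/S252W before Fgfr2+/+. The condylar libraries were rich in chondrocyte markers, with a sum over 16 markers of 38473, 34310.2 and 40285 normalized CPM in the Fgfr2+/S252W replicates 1, 2 and 3, and of 39935, 37064 and 40243 in the Fgfr2+/+ replicates. The MC libraries held far less, with 10970.5, 3151 and 3199 in Fgfr2+/S252W and 1137, 4149.9 and 4201 in Fgfr2+/+ embryos. MC replicate 1 of the Fgfr2+/+ embryos thus had the lowest sum of the 12 libraries and MC replicate 1 of the Fgfr2+/S252W embryos the highest among MC libraries. With all 18 libraries scaled together, the MC sums lay between 1306 and 12729.5, against 1628 to 2761 in mandibular bone, so that the Fgfr2+/+ MC replicate 1 held less chondrocyte RNA than every bone library. In the same scaling the sum of 15 osteoblast and bone matrix genes lay between 3813 and 7482 in MC and between 38382 and 76966 in bone. Every MC library, Fgfr2+/+ replicate 1 included, was thus below every bone library in that sum. In bulk tissue, fewer cells of a type and less RNA per cell cannot be told apart.

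Other markers differed between libraries of the same group. Fgfr2+/+ MC replicate 1 was high in Sp7, the osteoblast transcription factor, at 137 normalized CPM against 14.1 and 20.6 in the other Fgfr2+/+ MC libraries. Condylar replicate 3 of both genotypes was high in the sum of 15 osteoblast and bone matrix genes, with 11621, 12135 and 31230.2 in Fgfr2+/S252W and 11850.0, 10671 and 20122 in Fgfr2+/+ embryos. Fgfr2+/+ MC replicate 1 and both condylar replicates 3 thus stand apart from their groups, and values without them are given beside many of the results. MC replicate 1 of the Fgfr2+/S252W embryos is far from its group too, in its chondrocyte sum. It is not among the 3 libraries left out together below, and several cartilage results are given without it on its own. Whether Fgfr2+/+ MC replicate 1 was cut from MC could not be settled from the labels, and it is called by its label throughout. Ihh, Bglap and Mepe had no count in any MC library. Gm42418, a locus that collects ribosomal RNA reads, took 24.1% to 39.4% of counts in MC and 10.9% to 20.2% in condylar cartilage, and mitochondrial genes took 19.4% to 38.1% over the 12 libraries. Without Gm42418 and mitochondrial genes the difference described next had 0 genes past the adjusted threshold and 846 genes at an unadjusted p below 0.05.

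No gene showed a difference between the cartilages at an adjusted p below 0.05 (limma, 0% of 11354 genes tested), and the smallest adjusted p was 0.578. The number with an unadjusted p below 0.05 was 751 (6.61%), beside 568 if no gene differed, and 324 of them (2.85%) were higher and 427 (3.76%) lower in condylar cartilage relative to MC. With upper quartile factors that split was 248 higher and 500 lower, and with library totals alone it was 79 and 253. The quasi-likelihood test of edgeR also passed 0 genes, with 723 at an unadjusted p below 0.05, while DESeq2 passed 3 genes, Nfasc, Mob1b and Adamts18. Without Fgfr2+/+ MC replicate 1, limma again passed 0 genes, and 720 of 10907 (6.6%) had an unadjusted p below 0.05, 312 higher and 408 lower. Of these, 406 were among the 751, all in the same direction. Without the 3 libraries that stand apart the count was 857 of 10839 (7.91%).

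Neither effect on its own held a gene past the adjusted threshold with limma. Condylar cartilage had 245 genes (2.16%) at an unadjusted p below 0.05, 124 higher (1.09%) and 121 lower (1.07%) in Fgfr2+/S252W embryos, and its smallest adjusted p was 0.999. MC had 1302 genes (11.5%), 734 higher (6.46%) and 568 lower (5%), with a smallest adjusted p of 0.266, and DESeq2 passed 136 genes in MC and 0 in condylar cartilage. Both unadjusted counts come from 1 fit that pools the spread of the cartilages, which was larger in MC, and stand beside 568 if no gene differed. Fitted from the 6 libraries of each cartilage alone, the counts were 452 in condylar cartilage and 867 in MC. Across the 11354 genes Pearson's r between the effects was -0.07 and Spearman's rho -0.02, a description across genes, which are not independent replicates. At an unadjusted p below 0.05 in both cartilages, 16 genes moved the same way and 29 the opposite way.

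**Figure D1:**
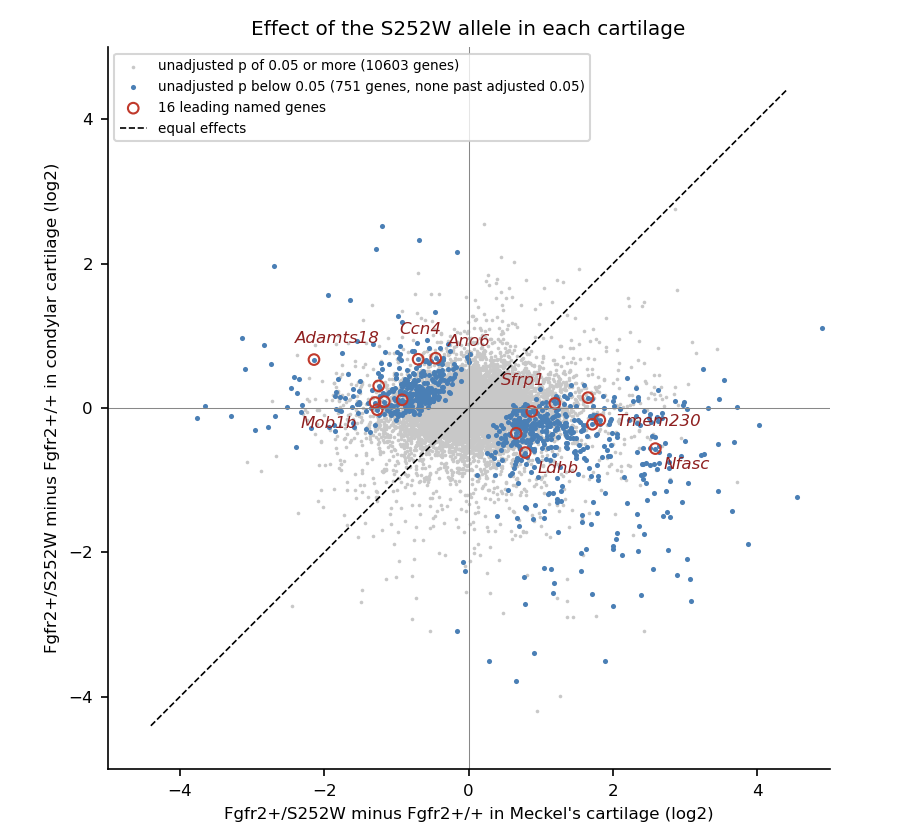
Each point is 1 of 11354 genes, placed by the log2 effect of the S252W allele in MC (horizontal) and in condylar cartilage (vertical). Blue points are the 751 genes at an unadjusted p below 0.05 for the difference, which lie off the dashed line of equal effects, and the 16 circled genes are the leading genes, and the blue points spread further along the MC axis than along the condylar axis.

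The spread between replicates set what could be seen. The median SE of the difference was 0.50 on the log2 scale, and the median half-width of its 95% interval was 1.07, so that the interval stayed within 1 log2 unit of 0 on both sides for 2164 genes and within 2 units for 7817 genes. The median SD of log2 values within a group was 0.32 in Fgfr2+/S252W and 0.26 in Fgfr2+/+ condylar cartilage, and 0.35 and 0.53 in MC. The MC effect was the larger of the pair in size in 68.5% of all genes tested and in 85.2% of the 751 genes.

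The 16 leading genes were the 8 with the smallest p in each direction that carry a gene name, and none passed the adjusted threshold (adjusted p = 0.578 for each, limma). In 15 of the 16 the MC libraries of the genotypes did not overlap, in 4 the condylar libraries did not overlap (13.6% and 9.83% of all genes tested), and in 15 the MC effect was the larger in size. Over all genes the MC libraries of Fgfr2+/S252W embryos lay above those of Fgfr2+/+ embryos in 7.37% and under them in 6.22%, the condylar libraries in 4.84% and 4.99%, and the condylar minus MC values per embryo in 4.85% and 5.61%. Since these genes were chosen by their p in this comparison, these counts describe the choice. The direction was the same in all 37 alternative fits for 15 genes, and in all 29 fits that kept Nfasc. Of 51 named genes with an unadjusted p below 0.05, 29 were at or above it in 1 or more of the fits that left out a library or an embryo.

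Mob1b (ENSMUSG00000006262, GRCm38 chromosome 5, 88720855 to 88762058, plus strand) encodes a MOB adaptor that activates the LATS kinases of the Hippo pathway. In MC its normalized CPM were 16.7, 20.1 and 20.2 in Fgfr2+/S252W replicates 1 to 3 and 48.9, 38.0 and 51.4 in Fgfr2+/+ replicates. In condylar cartilage they were 30.9, 29.1 and 27.1, against 25.4, 28.0 and 30.0. The MC groups did not overlap and the condylar groups did, with lower values in Fgfr2+/S252W MC. The difference was 1.37 ± 0.29 on the log2 scale (SE, 95% interval 0.76 to 1.98, adjusted p = 0.578, limma), DESeq2 gave 1.35 with an adjusted p of 0.023 (0.023 to 1.00 over the alternatives), and without Fgfr2+/+ MC replicate 1 limma gave 1.31.

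Adamts18 (ENSMUSG00000053399, chromosome 8, 113697126 to 113848615, minus strand) encodes a secreted metalloprotease of the ADAMTS family. Its MC values were 2.88, 3.28 and 1.07 in Fgfr2+/S252W and 14.6, 9.09 and 5.71 in Fgfr2+/+ libraries. Its condylar values were 24.1, 20.6 and 13.8, against 16.0, 11.2 and 10.2. The levels were lower with the allele in MC, without overlap, and the condylar groups overlapped with a higher mean. It had 7 to 428 fragments per library, fewest in Fgfr2+/S252W MC, so its MC effect rests on few fragments. The difference was 2.81 ± 0.67 (95% interval 1.38 to 4.24, adjusted p = 0.578, limma), DESeq2 gave 2.69 with an adjusted p of 0.035 (0.035 to 1.00 over the alternatives), and the limma value without Fgfr2+/+ MC replicate 1 was 2.36.

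Nfasc (ENSMUSG00000026442, chromosome 1, 132564691 to 132741797, minus strand) encodes neurofascin, a cell adhesion protein of the L1 family. In MC it was near the limit of counting, with 2.30, 3.28 and 1.53 normalized CPM in Fgfr2+/S252W and 0.162, 0.812 and 0.317 in Fgfr2+/+ libraries, and as few as 2 fragments in a library. It passed the filter through its condylar libraries alone. In condylar cartilage it stood at 22.8, 17.7 and 20.7, against 32.3, 27.7 and 30.3. The allele went with higher values in MC and lower values in condylar cartilage, and in neither tissue did the groups overlap. These MC counts are too few for a ratio, so its fitted difference is not given, and its place among the leading genes and the DESeq2 adjusted p of 0.00982 (0.00982 to 1.00 over the alternatives) rest on them.

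Ano6 was the 1 leading gene with a larger effect in condylar cartilage than in MC, and in Ccn4 the effects were close in size. Ano6, a calcium-activated phospholipid scramblase, was at 109, 112 and 107 in Fgfr2+/S252W and 77.9, 53.8 and 74.4 in Fgfr2+/+ condylar cartilage. Its MC values were 81.2, 65.1 and 67.0, against 113, 102 and 78.2. Its condylar groups did not overlap, its MC groups did, and the effects were 0.69 and -0.45 on the log2 scale. Ccn4, a matricellular protein of the CCN family, was at 57.4, 58.6 and 90.3, against 41.7, 31.4 and 54.8 in condylar cartilage. MC libraries stood at 58.0, 52.5 and 66.2, against 96.3, 82.5 and 109.6. Its groups were apart in both tissues and in opposite directions, with a difference of 1.37 ± 0.33 (adjusted p = 0.578, limma).

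A further 4 genes were higher in condylar cartilage relative to MC, each through lower values in Fgfr2+/S252W MC. Ireb2, an iron regulatory protein, was at 43.2, 57.9 and 43.2 in Fgfr2+/S252W and 94.7, 76.8 and 96.1 in Fgfr2+/+ MC. Coa5, an assembly factor of cytochrome c oxidase, was at 27.2, 43.4 and 33.7, against 101, 76.6 and 63.3. Tspan6, a tetraspanin, was at 13.6, 20.1 and 17.6, against 57.7, 34.9 and 25.8. None of these MC groups overlapped, while the condylar groups of each gene did. Btbd1, a BTB domain protein, was at 13.2, 11.2 and 11.0, against 25.6, 32.3 and 23.9, again apart. Their condylar effects were 0.11, -0.02, 0.31 and 0.09, and their differences 1.03 ± 0.26, 1.24 ± 0.32, 1.55 ± 0.39 and 1.26 ± 0.32 in the same order.

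In the other direction, Sfrp1, a secreted Wnt antagonist, was at 45.1, 35.9 and 37.2 in Fgfr2+/S252W and 15.0, 21.8 and 17.1 in Fgfr2+/+ MC. The condylar values were 58.1, 57.4 and 46.8, against 50.7, 50.3 and 55.0. The MC groups did not overlap and the condylar groups did, and the difference was -1.13 ± 0.28 (95% interval -1.74 to -0.52). Pmp22, a membrane glycoprotein best known from myelin, was at 139, 136 and 172, against 109, 85.9 and 85.6 in MC. Condylar libraries stood at 193, 169 and 223, against 247, 216 and 279.9. The MC groups did not overlap, with the allele on the high side, the condylar groups overlapped, and the difference was -1.01 ± 0.25.

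Ldhb, a lactate dehydrogenase subunit, was at 30.1, 22.4 and 31.9 in Fgfr2+/S252W and 15.7, 15.3 and 18.6 in Fgfr2+/+ MC. In condylar cartilage the genotypes leaned the other way, with some overlap, at 23.5, 15.9 and 15.7, against 29.0, 33.3 and 23.3. Its effects were -0.62 in condylar cartilage and 0.79 in MC, and the difference was -1.40 ± 0.35. Tmem230, a membrane protein of vesicle traffic, Lmf1, which matures lipases in the endoplasmic reticulum, and Abtb2, an ankyrin repeat and BTB domain protein, had differences of -1.98 ± 0.47, -1.51 ± 0.38 and -1.94 ± 0.51. Lmf1 was at 13.9, 12.2 and 13.2 in Fgfr2+/S252W and 3.48, 6.66 and 3.49 in Fgfr2+/+ MC. Abtb2 had its lowest value, 2.99, in Fgfr2+/+ MC replicate 1, and without that library its difference was -1.20 in place of -1.94. Rps10, a protein of the small ribosomal subunit, was at 65.5, 54.8 and 53.8, against 33.6, 31.0 and 29.8 in MC and had a difference of -0.92 ± 0.24.

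**Figure D2:**
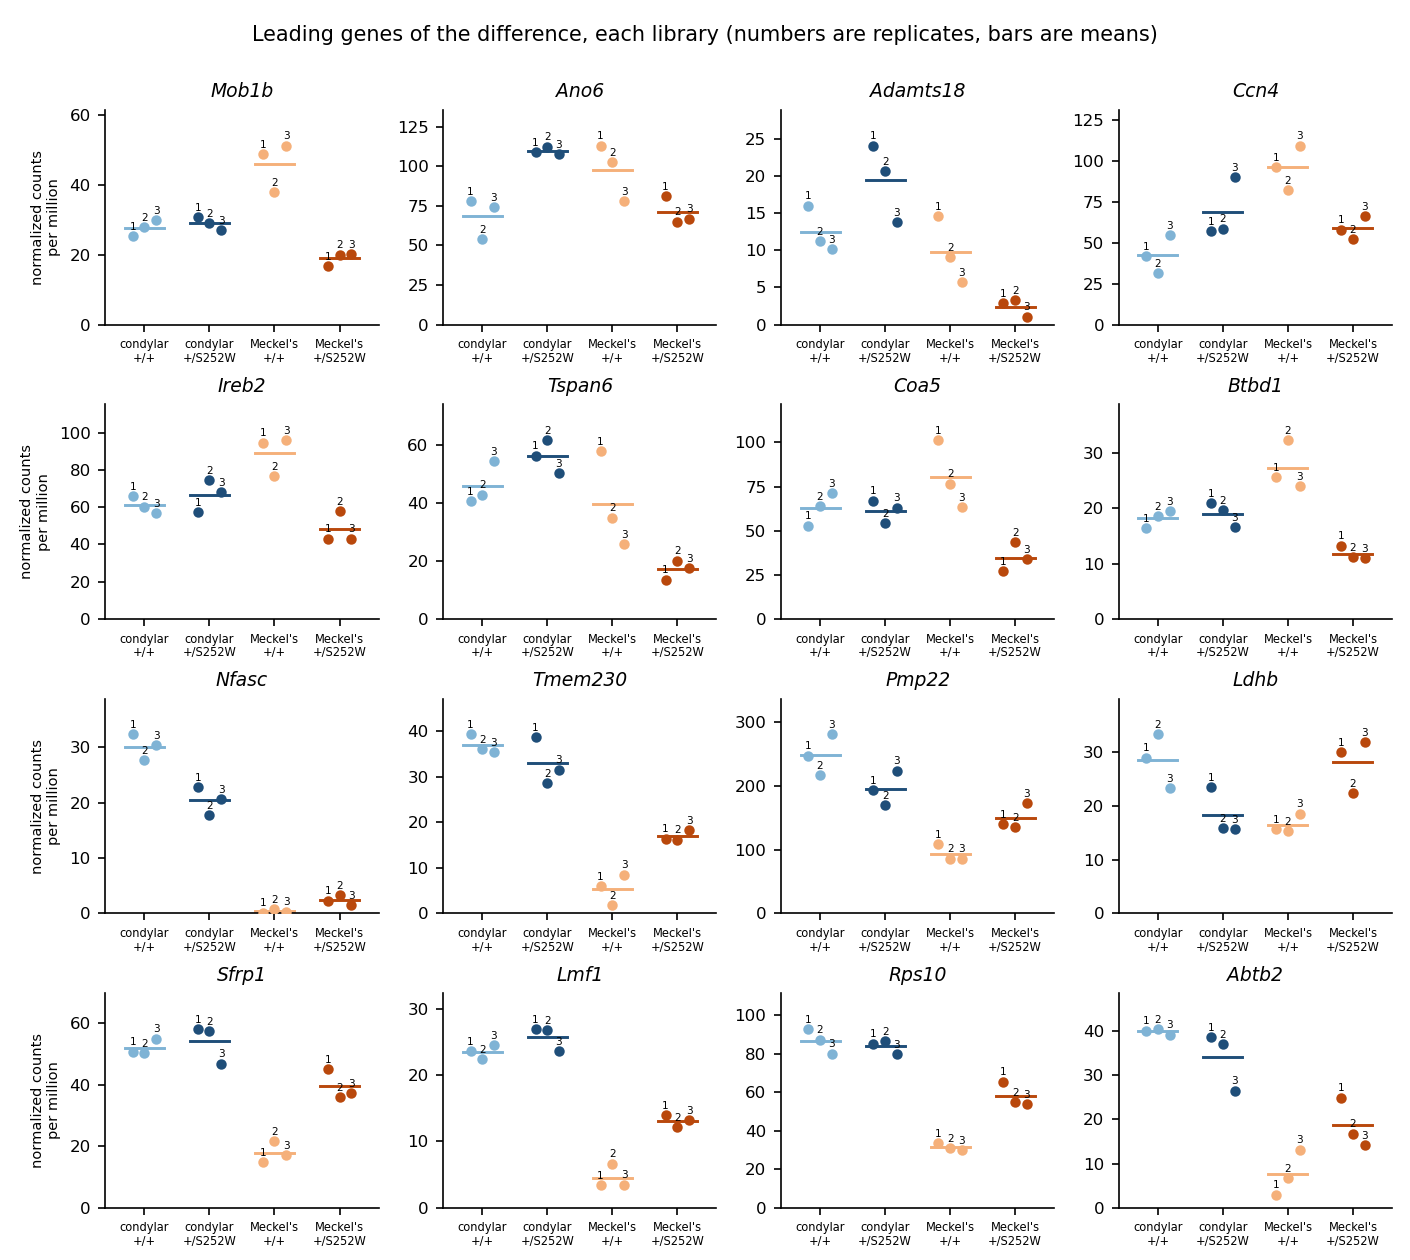
Each panel is 1 of the 16 leading genes, with normalized CPM on the vertical axis from 0, the 4 groups of cartilage and genotype on the horizontal axis, a numbered point for each library and a bar for the mean of 3. The MC groups (orange) are apart in 15 panels, all except Ano6, while the condylar groups (blue) overlap in 12.

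Among the FGF receptors, levels per exon length (normalized FPKM) of Fgfr2 were higher in MC and those of Fgfr3 in condylar cartilage, in both genotypes. Fgfr2 (ENSMUSG00000030849, chromosome 7, 130162451 to 133123350, minus strand) was at 22.1 ± 3.80 in Fgfr2+/S252W and 17.6 ± 1.82 in Fgfr2+/+ condylar cartilage (SD, n = 3), and at 55.3 ± 15.1 and 68.8 ± 26.4 in MC. Fgfr3 was at 49.8 ± 8.57 and 63.7 ± 6.19 in condylar cartilage and at 6.44 ± 4.64 and 7.18 ± 1.80 in MC. Fgfr1 was at 49.0 ± 36.2 and 29.3 ± 15.5 in condylar cartilage and at 35.2 ± 3.50 and 29.8 ± 14.3 in MC, the first value resting on replicate 3. The allele is a change of 1 amino acid, so the Fgfr2 level is no check of the genotype labels.

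For the 3 more abundant receptors the 95% interval of the difference included 0. In normalized CPM Fgfr2 was at 92.5, 125 and 128 in Fgfr2+/S252W and 87.7, 84.4 and 102 in Fgfr2+/+ condylar cartilage. In MC the values were 225, 263 and 376, against 489.9, 370.4 and 215. Both pairs of groups overlapped, and the difference was 0.60 ± 0.38 (95% interval -0.20 to 1.41, adjusted p = 0.782, limma). It was 0.32 without Fgfr2+/+ MC replicate 1 and ran from 0.29 to 1.01 with a library or embryo left out. For Fgfr1 the difference was 0.15 ± 0.67 (-1.28 to 1.58) and for Fgfr3 -0.05 ± 0.46 (-1.02 to 0.92), and for both genes the sign changed between alternative fits.

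Fgfr4, the least abundant of the 4 receptors with 0 to 69 fragments per library, had the smallest p among the 8 FGF ligands and receptors kept by the filter. Its MC values were 6.79, 1.74 and 2.30 in Fgfr2+/S252W and 0, 0.650 and 1.90 in Fgfr2+/+ libraries. Its condylar values were 2.98, 3.71 and 2.08, against 3.48, 4.87 and 4.29. The groups overlapped in both tissues, and MC replicate 1 was the highest of one genotype and at 0 in the other. The fitted difference was -3.95 ± 1.19 (adjusted p = 0.606, limma) and -1.97 without Fgfr2+/+ MC replicate 1, and the MC fragments are too few for its size to be read as a ratio. Fgf18, a ligand that acts on chondrocytes, was at 7.11 to 13.3 in the MC libraries with overlapping groups and at 0 to 0.452 in condylar cartilage, too few fragments for a ratio.

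Targets of FGF and ERK signaling were mixed. Of 23 genes listed 13 passed the filter, and at an unadjusted p below 0.05 1 was higher, Ccnd1, and 1 lower, Spry4, beside 2.85% and 3.76% of all genes, with a median difference of -0.37 against -0.04 over all genes tested. Without Fgfr2+/+ MC replicate 1 this median was 0.08. Spry4, a feedback inhibitor of the pathway, was at 7.72, 19.9 and 14.7 in Fgfr2+/S252W and 0.889, 1.14 and 10.8 in Fgfr2+/+ MC. Its condylar values were 1.46, 3.35 and 5.25, against 6.39, 2.05 and 4.29. The MC groups overlapped through Fgfr2+/+ replicate 3, and the difference was -3.17 ± 1.02 (adjusted p = 0.62, limma) from 7 to 103 fragments per library. It was -2.30 without Fgfr2+/+ MC replicate 1 and -1.90 without Fgfr2+/+ embryo 1 (unadjusted p = 0.0453 and 0.107, limma).

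Ccnd1, the cyclin that drives entry into the cell cycle, was at 37.0, 47.9 and 47.4 in Fgfr2+/S252W and 28.6, 17.6 and 40.7 in Fgfr2+/+ condylar cartilage. The MC values were 44.2, 74.5 and 107, against 96.8, 116 and 102. The groups overlapped in both tissues but leaned opposite ways, and the difference was 1.26 ± 0.43 (adjusted p = 0.643, limma). Etv5, a transcription factor induced by FGF signaling, was at 15.9, 25.1 and 19.9, against 14.0, 3.88 and 11.0 in condylar cartilage, where the groups did not overlap. In MC the gene stood at 21.3, 22.2 and 11.2, against 6.30, 20.5 and 22.8, lowest in Fgfr2+/+ replicate 1. Its difference was 0.75 ± 0.71 with all libraries and 1.52 (unadjusted p = 0.0217, limma) without that one. Dusp6, which removes phosphate from ERK, and Etv4 lay below the filter, Dusp6 with 10 to 78 fragments per library and Etv4 with 0 to 11.

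**Figure D3:**
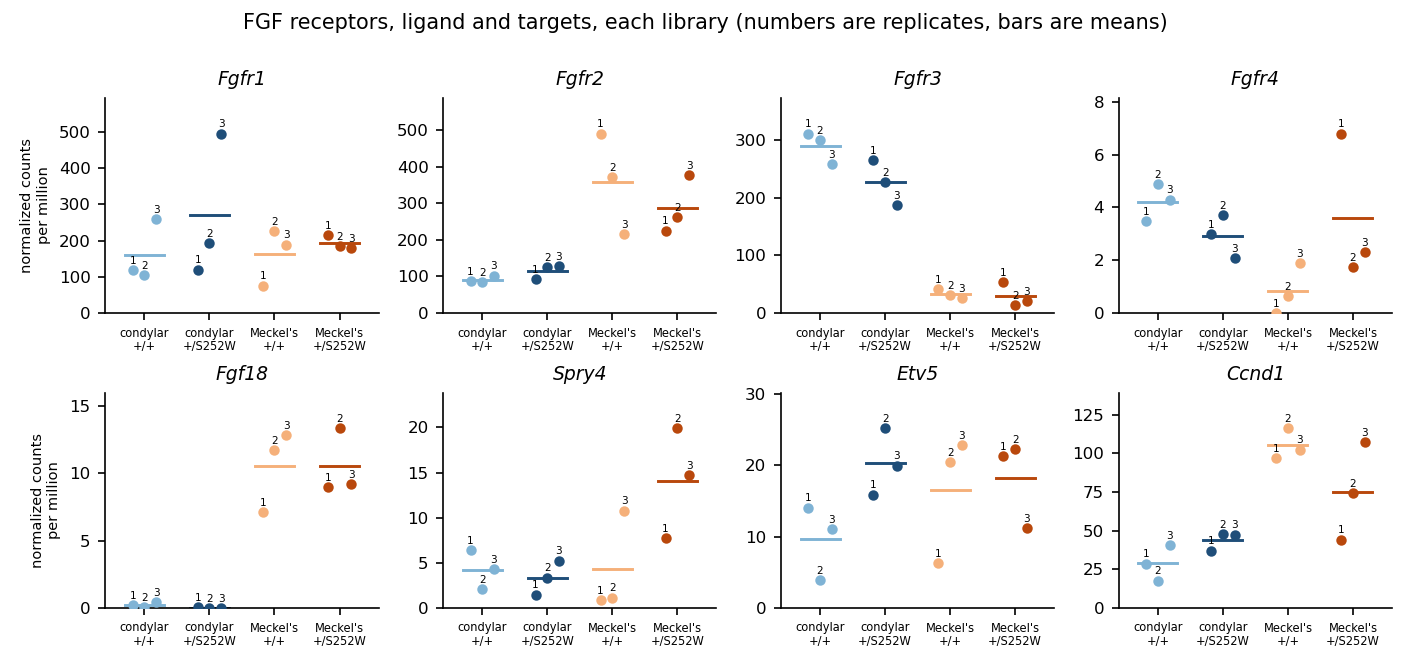
Panels give normalized CPM (vertical, from 0) of 8 FGF pathway genes in each library by cartilage and genotype, with replicate numbers at the points and bars for the mean of 3. Fgfr2 and Fgf18 are higher in MC and Fgfr3 in condylar cartilage, and the genotypes of 1 cartilage overlap in all panels except Etv5 and Fgf18 in condylar cartilage.

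Cartilage genes leaned to one side, and leaned less without 1 library. All 16 chondrocyte markers passed the filter, 15 had a negative difference and 1, Sox6, a positive one, and the median was -1.22 against -0.04 over all genes tested. Only Comp, an oligomeric matrix protein, had an unadjusted p below 0.05, 1 of 16 beside 3.76% of all genes. The median condylar effect was -0.08 and the median MC effect 1.14, and all 16 MC effects were positive. Without Fgfr2+/+ MC replicate 1, 13 of 16 differences were negative, the median was -0.21 and the median MC effect 0.17, and none had an unadjusted p below 0.05. With Fgfr2+/S252W MC replicate 1 left out in its place, the median was -0.51. These libraries have the lowest and the highest chondrocyte sum in MC, and their part in the result was measured only by leaving each out.

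Col2a1, the main collagen of cartilage, shows the pattern. In MC it was at 6206, 1340.0 and 1437 normalized CPM in Fgfr2+/S252W and 185, 2099 and 2112 in Fgfr2+/+ libraries. In condylar cartilage it was at 17950.0, 16388 and 21737, against 18253, 16985 and 19940.5. Replicate 1 is the extreme of both MC groups, high in one and low in the other, and the remaining MC libraries of the mutant group lie below those of the control group. The difference was -1.28 ± 1.14 (95% interval -3.71 to 1.14, adjusted p = 0.847, limma) and -0.09 without Fgfr2+/+ MC replicate 1, and -0.58 without Fgfr2+/S252W MC replicate 1. Acan, the aggrecan core protein, went from -1.01 to -0.51 without the former and -0.21 without the latter, and Sox9, the transcription factor that sets chondrocyte fate, from -1.16 to -0.26 without the former. Over 16 chondrocyte transcription factors the median was -0.25, and -0.03 without Fgfr2+/+ MC replicate 1, with none at an unadjusted p below 0.05.

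A longer list of cartilage matrix genes shares members with the markers. Of 24 genes 21 passed the filter, 19 had a negative difference with a median of -1.28, and Matn4 and Comp had an unadjusted p below 0.05, 2 of 21 beside 3.76% of all genes lower. Without Fgfr2+/+ MC replicate 1, 16 of the 21 were negative with a median of -0.30, and without Fgfr2+/S252W MC replicate 1 the median was -0.48. Comp was at 42.6, 11.4 and 12.1 in Fgfr2+/S252W and 3.56, 13.8 and 17.8 in Fgfr2+/+ MC, and its difference moved from -1.47 to -0.52 without the Fgfr2+/+ library and -0.75 without the Fgfr2+/S252W one. Matn1, a matrilin of cartilage, moved from -2.65 to -0.46 and -1.36 in the same order. Matn4, another matrilin, moved either way, with 9.67, 4.25 and 3.52, against 3.88, 3.41 and 1.74 in MC, 25.5, 28.4 and 22.9, against 35.9, 33.1 and 28.2 in condylar cartilage, and a difference of -1.21 ± 0.55. It was -1.50 without the Fgfr2+/+ library and -0.69 without the Fgfr2+/S252W one, where Matn4 was highest in MC (unadjusted p = 0.0422, 0.0343 and 0.238, limma).

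The sum of chondrocyte markers was also compared per embryo. On the log2 scale the condylar library exceeded the MC library of the same replicate number by 1.81, 3.44 and 3.65 in the Fgfr2+/S252W embryos and by 5.13, 3.16 and 3.26 in the Fgfr2+/+ embryos. The ranges overlap, and an exact two-sided permutation test gave p = 0.6 (adjusted p = 0.764 over 14 values), where 3 embryos against 3 allow no p below 0.1. Of 14 such sums and shares tested, none had an adjusted p below 0.7.

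**Figure D4:**
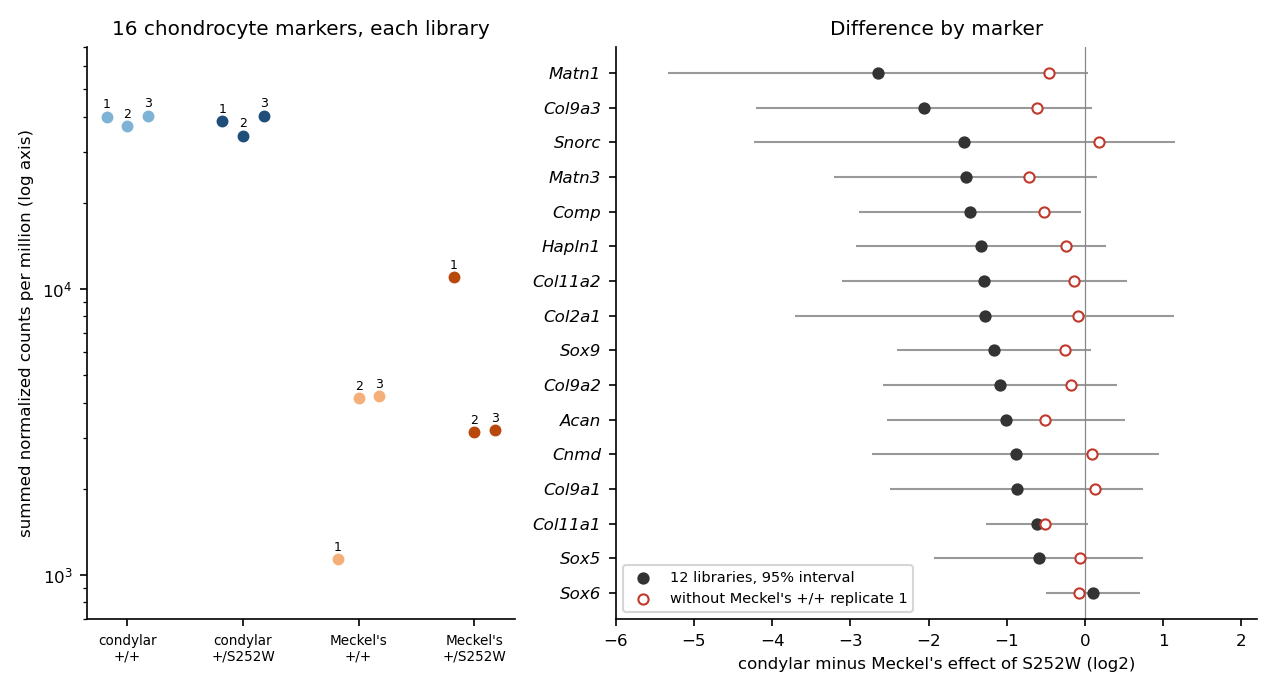
On the left, the sum of normalized CPM over 16 chondrocyte markers (log axis) in each library by cartilage and genotype, with replicate numbers. On the right, the difference of the S252W effect (log2, horizontal) for each marker with its 95% interval from 12 libraries (filled points) and its value without Fgfr2+/+ MC replicate 1 (open points), where the open points lie between -0.72 and 0.18.

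Genes of bone leaned the other way, again with replicate 1 of the Fgfr2+/+ MC. Of 15 osteoblast and bone matrix genes 12 passed the filter, 10 had a positive difference, the median was 0.84, and 1, Ifitm5, had an unadjusted p below 0.05 (beside 2.85% of all genes). Without that library the median was 0.14, with 6 positive and 6 negative, and without Fgfr2+/S252W MC replicate 1 it was 0.38. Ifitm5, a membrane protein of osteoblasts, was at 3.22, 1.54 and 4.44 in Fgfr2+/S252W and 21.4, 3.09 and 10.3 in Fgfr2+/+ MC, and its difference went from 1.95 to 1.10. Sp7 went from 1.15 to -0.08 and Runx2, which sets the osteoblast lineage, from 0.33 to -0.48. Col1a1, the main collagen of bone, had a difference of 0.56 ± 0.60.

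None of 8 hypertrophic markers had an unadjusted p below 0.05, and the list includes Ihh and Col10a1, which were at 0 or nearly so in MC, so that its median is not given. Ibsp, a matrix sialoprotein of mineralizing tissue, was at 1.61, 4.25 and 8.43 in Fgfr2+/S252W and 200.1, 6.17 and 3.81 in Fgfr2+/+ MC, highest by far in replicate 1. Its difference was 2.83 ± 1.89 with and 0.51 without that library. Mmp13, a collagenase of hypertrophic cartilage, moved from 2.32 to 1.13 without the library.

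Col10a1, the collagen of hypertrophic cartilage, was at 878, 1270.4 and 2653 in Fgfr2+/S252W and 1857, 1768 and 3507 in Fgfr2+/+ condylar cartilage, and at 1.35 to 6.82 in MC. Ihh, the hedgehog ligand of prehypertrophic chondrocytes, was at 49.1, 47.8 and 92.3, against 56.4, 54.7 and 93.9 in condylar cartilage, with replicate 3 highest in both genotypes, and it gives no difference since all MC libraries were at 0. Pthlh, the partner of Ihh in the growth plate, was found mainly in MC, at 13.8, 22.8 and 21.9 in Fgfr2+/S252W and 3.07, 11.2 and 23.1 in Fgfr2+/+ libraries with overlap. These genes mark where the cartilages differ in type and do not allow the effects to be compared.

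Of the 18 hypertrophic and mineralization genes kept, Ihh and Col10a1 among them, 1 was higher at an unadjusted p below 0.05, beside 2.85% of all genes. Xpr1, a phosphate exporter, was at 41.0, 46.3 and 50.3 in Fgfr2+/S252W and 81.0, 58.1 and 64.2 in Fgfr2+/+ MC, without overlap, and at 37.2, 39.6 and 49.4, against 35.2, 29.6 and 43.9 in condylar cartilage. Its difference was 0.79 ± 0.30 (adjusted p = 0.654, limma). Enpp1, which makes pyrophosphate, was at 75.2, 72.8 and 148, against 42.6, 35.7 and 43.1 in condylar cartilage, without overlap. Its MC values were 66.8, 16.6 and 19.8, against 5.90, 47.1 and 49.3, lowest in Fgfr2+/+ replicate 1. Its difference was 0.58 ± 0.88 with that library and 1.86 without it (unadjusted p = 0.00574, limma). Ank, a pyrophosphate transporter, had a condylar effect of 0.62, an MC effect of 0.39 and a difference of 0.22 ± 0.40.

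Of 16 genes of Indian hedgehog and PTHrP signaling 15 passed the filter, among them Ihh and Pthlh, which had few or no fragments in one of the cartilages. Gli3, a transcription factor that represses hedgehog targets, was at 64.9, 75.2 and 59.0 in Fgfr2+/S252W and 55.8, 40.2 and 53.2 in Fgfr2+/+ condylar cartilage. MC libraries stood at 74.5, 81.1 and 80.1, against 109, 81.7 and 77.5. It was higher with the allele in condylar cartilage without overlap, and its difference was 0.62 ± 0.27, the 1 gene of the list at an unadjusted p below 0.05 (beside 2.85% of all genes). It was 0.45 without Fgfr2+/+ MC replicate 1 (unadjusted p = 0.104, limma). Ptch1, receptor and target of hedgehog, had a difference of 1.06 ± 0.57 with and 0.38 without Fgfr2+/+ MC replicate 1, where it stood at 320.1 against 114 and 71.4 in the other replicates.

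The Hippo pathway list held 3 of 17 genes at an unadjusted p below 0.05, all higher in condylar cartilage relative to MC, beside 2.85% of all genes. They were Mob1b, Amotl1, a scaffold that holds YAP at cell junctions, and Lats1, the kinase that phosphorylates YAP. Amotl1 was at 144, 147 and 146 in Fgfr2+/S252W and 97.6, 95.1 and 128 in Fgfr2+/+ condylar cartilage, without overlap, and at 272, 257 and 272, against 444, 375 and 261 in MC. Its difference was 0.87 ± 0.27 and that of Lats1 0.66 ± 0.23 (adjusted p = 0.617 and 0.643, limma). The median of the list was 0.15, with a range of 0.06 to 0.23 over 23 alternatives, and 3 genes, none lower, had an unadjusted p below 0.05 also without Fgfr2+/+ MC replicate 1.

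Cell cycle genes leaned toward condylar cartilage. Of 38 genes, all kept by the filter, 34 had a positive difference, against 5426 of the 11354 genes tested, with a median of 0.33. Ccnd1 and Ccnd2 had an unadjusted p below 0.05, both higher, 2 of 38 beside 2.85% of all genes. Ccnd2, another D cyclin, was at 94.8, 96.4 and 99.3 in Fgfr2+/S252W and 64.0, 52.7 and 81.8 in Fgfr2+/+ condylar cartilage, without overlap, and at 259, 343 and 433, against 373, 363 and 407 in MC. The median condylar effect of the list was 0.32 and the median MC effect -0.04. Without Fgfr2+/+ MC replicate 1 the median difference was 0.05, with 22 positive against 5259 of 10907 genes, and over 23 alternatives it ran from -0.09 to 0.70. Mki67, a marker of cycling cells, was at 40.1, 73.1 and 38.5, against 21.5, 26.7 and 51.1 in condylar cartilage and at 286, 236 and 309, against 325, 185 and 144 in MC, with overlap in both.

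Matrix genes outside cartilage and bone included several with opposite leanings. Tnc, the tenascin of perichondrium and tendon, was at 309.9, 385 and 542 in Fgfr2+/S252W and 182, 187 and 317 in Fgfr2+/+ condylar cartilage. In MC the values were 101, 123 and 105, against 482, 109 and 159. The difference was 1.81 ± 0.57 with and 1.14 without Fgfr2+/+ MC replicate 1. Mfap4, a microfibril protein, was at 349, 432 and 469, against 162, 320.1 and 215 in MC, without overlap, and at 11.8, 12.5 and 9.41, against 11.5, 12.6 and 36.3 in condylar cartilage, highest in Fgfr2+/+ replicate 3. Its difference was -1.50 ± 0.52, -1.24 without Fgfr2+/+ MC replicate 1 and -0.62 without the 3 libraries that stand apart (unadjusted p = 0.0108, 0.0209 and 0.116, limma). In all, 21 of 26 genes of perichondrium and fibrous tissue passed the filter, with 1 higher and 1 lower at an unadjusted p below 0.05 (beside 2.85% and 3.76% of all genes) and a median of 0.14.

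Timp1, an inhibitor of metalloproteases, was at 2.88, 3.67 and 6.59 in Fgfr2+/S252W and 12.7, 14.0 and 8.40 in Fgfr2+/+ MC, without overlap, and at 32.5, 35.8 and 55.7, against 27.3, 23.1 and 44.7 in condylar cartilage. Its difference was 1.88 ± 0.60 and that of Adamts12, a metalloprotease that cuts COMP, was 0.69 ± 0.31 (0.35 without Fgfr2+/+ embryo 2), the 2 of 21 proteases and inhibitors at an unadjusted p below 0.05, beside 2.85% of all genes. Without Fgfr2+/+ MC replicate 1, 5 of the 20 kept were higher at that threshold, beside 2.86% of all genes in that fit. Among 25 enzymes of collagen modification 1 was higher and 3 were lower, beside 2.85% and 3.76%, and without Fgfr2+/+ MC replicate 1 1 was higher and 2 were lower. Lox, the oxidase that cross-links collagen, was at 137, 162 and 116, against 281, 233 and 204 in MC, without overlap, with a difference of 1.14 ± 0.39 (0.75 without Fgfr2+/S252W embryo 3). Ppib, a prolyl isomerase of the collagen hydroxylase complex, was at 11.1, 15.1 and 11.5, against 6.06, 6.82 and 5.87, without overlap in the other direction, with a difference of -1.21 ± 0.42. Plod3, a lysyl hydroxylase, and P3h3, of the prolyl 3-hydroxylase family, had differences of -0.77 ± 0.30 and -0.95 ± 0.39. That of P3h3 was -0.55 without Fgfr2+/+ MC replicate 1 (unadjusted p = 0.121, limma), and that of Plod3 was -0.68 without the 3 libraries (unadjusted p = 0.0704, limma).

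Signaling lists other than these held 0 or 1 genes in each direction at an unadjusted p below 0.05, beside 2.85% of all genes higher and 3.76% lower. Among 22 genes of BMP signaling it was Chrdl1, a BMP antagonist, at 112, 104 and 247 in Fgfr2+/S252W and 68.2, 83.0 and 95.3 in Fgfr2+/+ condylar cartilage and at 13.0, 9.07 and 12.9, against 29.2, 15.9 and 14.7 in MC, apart in both tissues in opposite directions. Its difference was 1.56 ± 0.57 with and 1.16 without Fgfr2+/+ MC replicate 1 (unadjusted p = 0.0142 and 0.0709, limma), and 1.03 without Fgfr2+/+ embryo 1. Among 30 genes of Wnt signaling they were Sfrp1 and Ctnnb1, beta-catenin, at 0.84 ± 0.34. Among 20 genes of TGF-beta signaling it was Ltbp1, which holds latent TGF-beta in the matrix, at -1.07 ± 0.47. Among 8 genes of Notch signaling it was Rfng, a glycosyltransferase that modifies Notch, at 1.33 ± 0.61 (0.80 without Fgfr2+/S252W MC replicate 2), and among 25 syndecans, glypicans and heparan sulfate enzymes it was Glce, the epimerase of heparan sulfate, at 0.75 ± 0.35. Of 17 genes of the IGF axis none had an unadjusted p below 0.05. The differences of Ctnnb1, Ltbp1 and Glce were 0.46, -0.79 and 0.72 without Fgfr2+/+ MC replicate 1 (unadjusted p = 0.0571, 0.0944 and 0.0707, limma). The medians of these 6 lists lay between -0.31 (TGF-beta) and 0.15 (Wnt), and without that library the TGF-beta median was -0.0051.

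The medians of metabolic and ribosomal lists lay between -0.12 and 0.03 with 12 libraries and between -0.26 and -0.07 without Fgfr2+/+ MC replicate 1. Glycolysis and hypoxia genes had a median of -0.10 over 29 genes, 23 of them negative, and of -0.26 without that library, with Slc2a1, the glucose transporter, at 286, 157 and 109.6 in Fgfr2+/S252W and 268, 284 and 219.6 in Fgfr2+/+ condylar cartilage and a difference of -1.28 ± 0.56. Secretory stress genes had a median of -0.04 over 27 genes, and -0.22 without that library, with Xbp1, a transcription factor of the unfolded protein response, at -0.68 ± 0.29 (unadjusted p = 0.0338, limma). The Xbp1 difference was -1.06 without Fgfr2+/S252W embryo 1 and -0.43 without Fgfr2+/S252W embryo 3 (unadjusted p = 0.00206 and 0.197, limma). Of 85 ribosomal protein genes 2 were higher (Rpl15 at 0.89 ± 0.30 and Rps3 at 0.68 ± 0.23) and 3 lower (Rps10, Rpl13 at -1.22 ± 0.40 and Rps25 at -0.66 ± 0.27), beside 2.85% and 3.76% of all genes, with a median of 0.03, and the levels of these genes are uncertain where processed copies share reads. Mitochondrially encoded genes had a median of -0.12 over 25 genes, 14 of them negative. Only mt-Tp, a transfer RNA, was lower at an unadjusted p below 0.05, 1 of 25 beside 3.76% of all genes. It was at 0 to 0.650 normalized CPM in Fgfr2+/+ MC, too few fragments for a ratio.

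**Figure D5:**
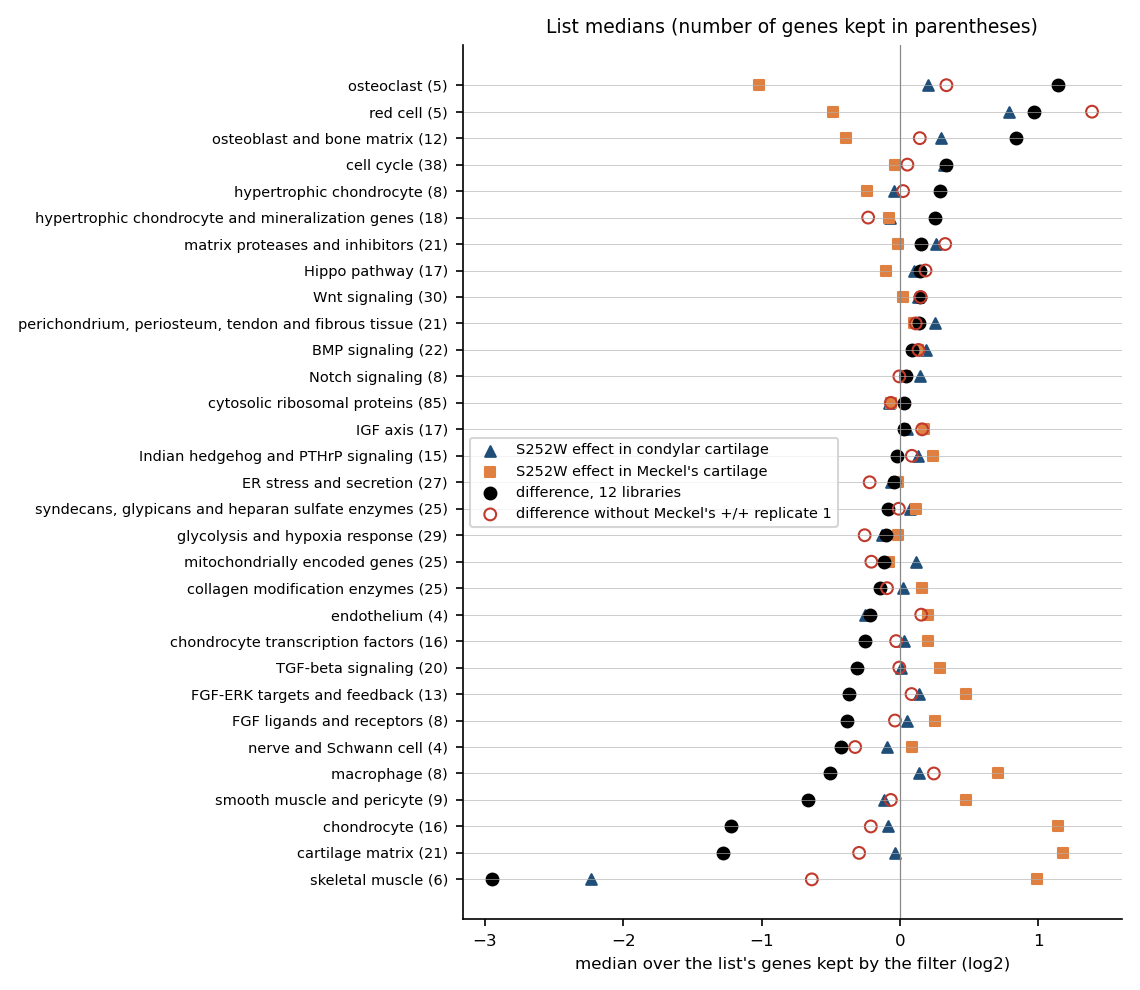
For each list with 4 or more genes kept, the median S252W effect in condylar cartilage (triangles), in MC (squares) and their difference from 12 libraries (black points) and without Fgfr2+/+ MC replicate 1 (open circles), in log2 units. The cartilage lists stand at -1.22 and -1.28 with 12 libraries and at -0.21 and -0.30 without that library, and lists with Ihh, Col10a1 or Pthlh hold genes nearly absent from one cartilage.

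Markers of other cell types that microdissection can take along differed between libraries. Skeletal muscle markers summed to 35.3, 30.2 and 29.0 normalized CPM in Fgfr2+/S252W and 26.1, 282 and 547 in Fgfr2+/+ condylar cartilage, and to 97.0, 56.0 and 351, against 42.8, 985 and 106 in MC. The 6 of 21 muscle genes that passed the filter had a median difference of -2.95, with Mylpf alone at an unadjusted p below 0.05 (1 of 6 beside 3.76% of all genes lower), a median of -0.64 without Fgfr2+/+ MC replicate 1, and one of 0.37 without the 3 libraries that stand apart, when 3 of the 6 were negative. Mylpf had 1 to 156 fragments per library and was at 0.281 to 0.437 in Fgfr2+/S252W condylar cartilage, too few fragments for a ratio. The SE of the 6 differences ran from 0.99 to 3.46. The part of muscle RNA in other results was not tested. Macrophage markers summed to 204, 193 and 135 in Fgfr2+/S252W and 84.5, 109.8 and 116 in Fgfr2+/+ MC and to 6.58 to 18.9 in condylar cartilage. Csf1r, the receptor that macrophages need, was at 30.2, 28.6 and 13.6, against 12.4, 9.58 and 16.6 in MC and had a difference of -1.75 ± 0.63, and of -0.94 without Fgfr2+/S252W embryo 1 (unadjusted p = 0.164, limma). Of 8 macrophage genes kept, 4 had a positive and 4 a negative difference, with a median of -0.51, and of 0.24 without Fgfr2+/+ MC replicate 1. Csf1r and C1qb, a complement subunit, were lower at an unadjusted p below 0.05, 2 of 8 beside 3.76% of all genes, and C1qb was at 0 to 0.828 in condylar cartilage, too few fragments for a ratio.

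Endothelial, Schwann cell and pericyte genes were mixed in direction. At an unadjusted p below 0.05, 1 of 4 endothelial genes was lower, 1 of 4 nerve and Schwann cell genes was lower, and of 9 smooth muscle and pericyte genes 1 was higher and 1 lower, beside 2.85% of all genes higher and 3.76% lower. Differences were positive for 2 of the endothelial, 1 of the nerve and Schwann cell and 3 of the smooth muscle and pericyte genes. Pecam1, an adhesion protein of endothelium, was at 1.01, 1.09 and 1.64 in Fgfr2+/S252W and 3.48, 2.54 and 4.82 in Fgfr2+/+ condylar cartilage, without overlap, with overlapping groups in MC, where Fgfr2+/+ replicate 1 was the highest control, and had a difference of -2.19 ± 0.86. It did not pass the filter without that library, and was at -1.36 without Fgfr2+/+ embryo 3. S100b, which chondrocytes express as well as Schwann cells, was at 12.8, 7.53 and 6.89, against 1.29, 3.41 and 3.49 in MC, without overlap, and had a difference of -1.89 ± 0.84, and of -1.27 without Fgfr2+/+ MC replicate 1 (unadjusted p = 0.18, limma). Cspg4, a proteoglycan of pericytes that is also found on chondrocytes, had a difference of -1.16 ± 0.46, and of -0.64 without that library (unadjusted p = 0.118, limma). For Mylk, a myosin light chain kinase, it was 0.82 ± 0.36. Of 12 osteoclast and 11 red cell genes listed, 5 each passed the filter, all with positive differences and none at an unadjusted p below 0.05. The osteoclast markers summed to 123, 139 and 138 in Fgfr2+/S252W and 328, 186 and 181 in Fgfr2+/+ MC, without overlap. Their median difference was 1.14 over the 5 genes kept with 12 libraries and 0.34 over the 4 kept without Fgfr2+/+ MC replicate 1. The red cell median was 0.97, and without the 3 libraries that stand apart it was 2.14, with 3 of 5 genes higher at an unadjusted p below 0.05, beside 4.01% of all genes in that fit.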

How the data were processed

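The authors captured tissue by laser microdissection, amplified the RNA, aligned paired reads by STAR to mm10 (GRCm38) and ran featureCounts 1.5.0-p1 on the alignments. Per the file headers, the deposited values are raw counts of exon fragments by gene, counted without regard to strand, over Ensembl release 75 genes. Removal of duplicate reads is not given in the sources used here. Without strand, reads of overlapping antisense genes cannot be told apart.

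The filter kept a gene if 50% or more of the 12 cartilage libraries exceeded 1 FPKM, a value computed here from counts and exon lengths. Counts were scaled by TMM factors (edgeR 4.0.16), fitted with voom and limma 3.58.1 with 1 mean per group, and adjusted by Benjamini-Hochberg at 0.05. DESeq2 1.42.0 and the edgeR quasi-likelihood test were alternatives. The main limma fit and the edgeR fit were also run on simulated counts, with results not given here, and DESeq2 was not. Sums over markers were compared per embryo by an exact two-sided permutation test. Gene names came from a GENCODE table that named 36964 of 38243 genes.

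Named genes were the 8 with the smallest p in each direction, leaving out predicted genes, the 2 with the smallest p in each list, and a fixed set of cartilage, bone and FGF genes. Lats1, Plod3, P3h3, Rpl15, Rps3 and Rps25 were named after their values were seen. The members and lists were chosen with earlier results of these data known, and lists received no test of their own. The pairing of cartilages within an embryo was inferred from the replicate numbers in the labels. After subtracting group means, paired libraries had an average correlation of -0.019 in Fgfr2+/S252W and 0.012 in Fgfr2+/+ embryos, so the main fit had no embryo term. The p-values of the main fit measure the spread between the 3 libraries within each group of genotype and cartilage. That spread is pooled over the groups and moderated across genes. Mandibular bone libraries were used only to scale marker sums and in 1 alternative.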

Additional observations from a re-analysis of the deposited data

How the results depend on the processing

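The difference between the cartilages had 0 genes past the adjusted threshold in all limma and edgeR fits, including the 18 that left out a library or an embryo. DESeq2 passed 3 genes, and 10 without Fgfr2+/+ MC replicate 1, of which only Mob1b was among the 3. That alternative, its edgeR counterpart and the fit without the 3 libraries that stand apart were chosen after seeing the data. The cause of these changes was not tested. At an unadjusted p below 0.05 the difference had 751 genes, 1580.0 with no filter, 332 with library totals, 513 to 1163 when a library was left out and 461 to 985 when an embryo was left out. The count was 1163 without Fgfr2+/+ MC replicate 2, 461 without Fgfr2+/S252W embryo 1 and 490.0 without Fgfr2+/S252W embryo 2.

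In condylar cartilage 1 gene passed without the 3 libraries and 2 with DESeq2 without Fgfr2+/+ MC replicate 1. Its unadjusted count was 816 with no filter, 103 with library totals, 1113 with sample quality weights, 442 with weights per tissue, 452 from its own 6 libraries, 465 without the 3 libraries, and 117 to 345 or 137 to 365 when a library or an embryo was left out. In MC DESeq2 passed 136 genes, and 157 without Fgfr2+/+ MC replicate 1, where edgeR passed 1. Its unadjusted count was 2243 with no filter, 530.0 with library totals, 786 with sample quality weights, 867 from its own 6 libraries, and 764 to 1811 or 742 to 1677 when a library or an embryo was left out. The fits with no filter tested more genes than the 11354 of the main fit, so their counts are not over the same total. With no filter the median of all genes was -0.10 in the difference and 0.17 in MC, and with library totals it was -0.12 in condylar cartilage.

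With a replicate block for the embryo the difference had 611 genes at an unadjusted p below 0.05 as a fixed term and 702 as a random term (correlation -0.041), and with equal replicate numbers as a block 681. None passed the adjusted threshold in these fits. Deviations of same-numbered libraries of the genotypes had correlations of 0.0760, 0.0497 and 0.266 in condylar cartilage and of -0.155, -0.0531 and -0.0636 in MC, not all above 0.1, so the numbers were not taken to pair them. The fixed embryo term was run for the difference alone, since it allows no effect within 1 cartilage.

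Single genes changed sign as follows. Sox9 was at 0.016 without the 3 libraries. Col10a1, whose low MC levels do not allow the effects to be compared, was at -0.0018 with sample quality weights and ran from -0.24 to 1.10 with a library or embryo left out. The same ranges were -0.024 to 1.25 for Col1a1, -0.034 to 1.89 for Enpp1, -0.13 to 0.61 for Ank and -0.079 to 1.91 for Etv5. Runx2 was at -0.33 with sample quality weights, -0.64 without the 3 libraries, -0.50 with edgeR and -0.48 with DESeq2 without Fgfr2+/+ MC replicate 1, and ran from -0.49 to 0.97. Sp7 was at -0.10 without the 3 libraries, -0.39 with edgeR and -0.38 with DESeq2 without that replicate, and ran from -0.22 to 1.77. Mki67 was at -0.14 and -0.13 in those fits and ran from -0.36 to 0.87. Fgfr1 was at -0.0097 with no filter and ran from -0.44 to 0.70. Fgfr3 was at 0.015 with no filter and 0.065 with sample quality weights and ran from -0.43 to 0.58. Genes with few fragments, such as Nfasc, Fgfr4 and Spry4, have the widest counting error.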
